A study of Bos taurus and Bos indicus with 6 samples.

Results

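The genes described here encode the translation initiation factors, the proteins that bring ribosome, initiator tRNA and messenger RNA together at a start codon. They were chosen by name: every probe set with exactly 1 gene symbol that starts with EIF and a digit, leaving out the EIF2AK kinases. For each gene the probe set with the highest mean over the 6 arrays stood for the gene. This gave 37 genes of the 9155 with a single symbol, from 53 probe sets of 24128 on the array. A pair of probe sets that carry the symbols EIF4EBP3 and ANKHD1 together was left out.

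RNA came from circulating white blood cells of 3 Holstein (Bos taurus) and 3 Brahman (Bos indicus) cattle. All were female and 6 months old, and all were under heavy challenge with the cattle tick Rhipicephalus microplus. Whole leukocyte pellets were used after lysis of red cells, with no sorting and no culture, and each animal had an Affymetrix bovine array of its own. Animals without ticks were not analysed here, so the comparison asks how the breeds differ while both carry ticks. How sequence differences between Bos taurus and Bos indicus act on the array's probes cannot be told apart from breed.

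Translation begins when eIF4F binds the cap of a messenger RNA. In this complex eIF4E holds the cap, eIF4G is the scaffold and eIF4A the helicase. The small ribosomal subunit, loaded with eIF1, eIF1A, eIF3, eIF5 and the eIF2 complex that carries initiator tRNA, then scans for the start codon. The exchange factor eIF2B recharges eIF2 with GTP, and stress kinases of the EIF2AK family slow initiation by phosphorylating the alpha subunit of eIF2. Leukocytes raise protein synthesis when they are activated, in part through the kinase mTOR, which releases eIF4E from the eIF4E-binding proteins.

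Of the 37 initiation factor genes, 0 passed the test between the breeds. The test was limma on log2 values with p-values adjusted by Benjamini-Hochberg over 24016 probe sets, and a gene was called at an adjusted p under 0.05. Over all probe sets 0.137% were called. The adjusted p-values of the 37 genes ran from 0.203 to 0.983. Differences are Brahman minus Holstein on the log2 scale, and they ran from -0.40 for EIF2S1, the alpha subunit of eIF2, to 0.56 for EIF4E3, a relative of the cap-binding protein eIF4E. Their median was -0.06, against -0.01 over all 9155 genes, and 26 of the 37 (70.3%) had lower values in Brahman, against 51.7% of all genes.

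At an unadjusted p under 0.05, 4 initiation factor genes were lower in Brahman (EIF3L, EIF2B3, EIF2S1 and EIF6) and 1 was higher (EIF4E3). EIF2B3 is counted by its brighter probe set, while its other probe set was higher, and with the probe sets of each gene averaged 3 genes were lower and 1 was higher. The counts of 4 and 1 are 10.8% and 2.70% of the 37 genes. Over all genes, each read from its brightest probe set, 9.62% were lower and 6.23% higher by the same rule, so the lower share lay near the background. Without Holstein 3 the count of lower genes was 7, and it was 3 or 4 without any other single array. The count of higher genes was 1 in all 6 of these fits.

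In 7 genes every Brahman array lay below every Holstein array, which is 18.9% of the 37, against 12.2% of all genes. In 3 genes (8.11%) every Brahman array lay above, against 10.4% of all genes. Together these make 27.0% of the initiation factor genes and 22.7% of all genes.

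The precision lets most of these genes be bounded. For 28 of the 37 genes (75.7%) the 95% interval of the difference lay within 0.5 log2 units of zero, against 65.8% of all genes. For all 37 it lay within 1 unit, as it did for 8671 of the 9155 genes. Intervals reached from -0.76 at the lowest, for EIF4EBP1, to 0.90 at the highest, for EIF4E3. They are per gene, with no adjustment for the number of genes. The standard error of a difference ran from 0.08 to 0.17, with a median of 0.11.

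**Figure D1:**
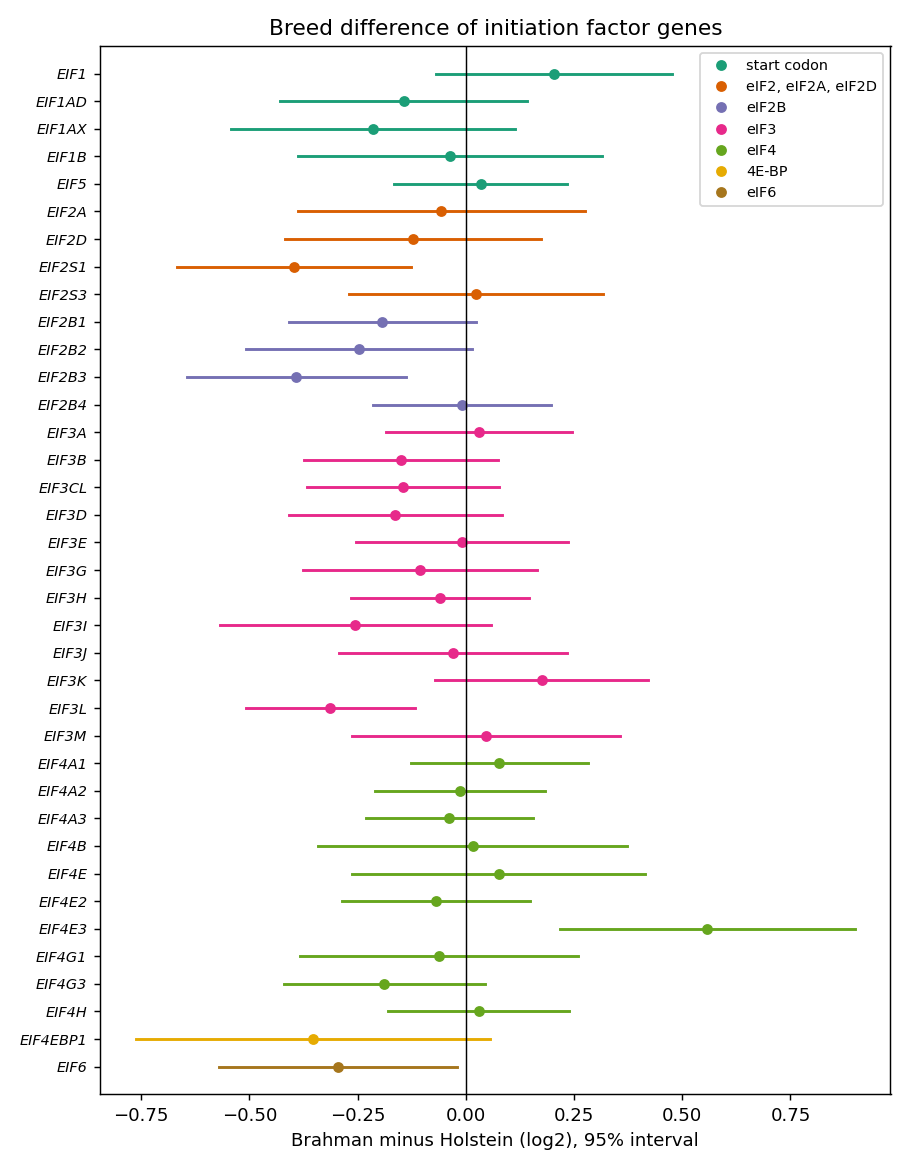
Brahman minus Holstein difference of each of the 37 initiation factor genes (points, log2) with its 95% interval from limma (lines, 3 arrays per breed), coloured by role. Intervals of 5 genes leave out 0, and only that of EIF4E3 lies above it.

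White blood cells are a mixture, and fewer cells of a type and less RNA per cell cannot be told apart in these bulk samples. The markers of some cell types differed between the breeds: the mean log2 level of 9 T cell markers was 9.33 to 9.51 on the Holstein arrays and 9.72 to 9.89 on the Brahman arrays, with 8 of 9 higher in Brahman. The 6 NK cell markers ranged from 7.81 to 8.05 in Holstein and 8.22 to 8.89 in Brahman, with 5 of 6 higher, and 4 monocyte markers from 8.49 to 9.11 and 8.15 to 8.44, with 3 of 4 lower. The 4 B cell markers (9.90 to 10.12 in Holstein, 10.19 to 10.36 in Brahman) and 4 neutrophil markers (9.39 to 9.65 and 9.67 to 10.20) did not overlap either, but only 2 of the 4 B cell markers and 3 of the 4 neutrophil markers were higher. Overlap was seen for 6 erythroid markers (5.80 to 6.18 and 5.90 to 6.01), 2 platelet markers (7.58 to 7.83 and 7.20 to 7.62) and the single measured eosinophil marker, CCR3 (9.11 to 10.63 and 9.33 to 10.10). The genes with the smallest p-values in these lists were LEF1 (0.96) and CD3E (0.54) for T cells, GZMB (2.51) and KLRD1 (0.90) for NK cells, CD14 (-0.94) and CSF1R (-0.31) for monocytes, and BLK (0.97) and CR2 (0.35) for B cells. The NK marker PRF1 went the other way (-0.60, unadjusted p = 0.0331). The other B cell markers, CD79A (-0.23) and MS4A1 (-0.14), were on the lower side. Those with the smallest p-values were ALPL (1.42) and MMP9 (0.09) for neutrophils, with S100A9 at 0.09 and S100A8 at -0.02, ALAS2 (-0.56) and HBA (-0.14) for erythroid cells, and PF4 (-0.60) and ITGA2B (0.10) for platelets. GZMB was the one marker called (adjusted p = 0.0264), in 2 of 6 fits with an array left out, and its call was lost without Holstein 1 or any 1 Brahman array (adjusted p from 0.0568 to 0.133). On this scale no probe set reads 0, but 2 erythroid markers and 1 platelet marker averaged below 5.08, the 25% quartile of the probe set means. Hybridisation spike-ins averaged 10.14 ± 0.22 (SD, n = 3) on the Holstein arrays and 9.72 ± 0.08 on the Brahman arrays, without overlap. The part of cell makeup and of the spike-in level in the differences of single genes was not tested, except where a value with the spike-in covariate is given.

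Among the factors that select the start codon, EIF1 and EIF1AX had the smallest p-values and opposite signs, and each sign turned with the spike-in covariate (-0.06 and 0.18). EIF1 guards against initiation at the wrong codon. It read 12.79, 12.45 and 12.76 on Holstein 1, 2 and 3 and 12.81, 12.84 and 12.95 on Brahman 1, 2 and 3. The Brahman arrays were all above the Holstein arrays, narrowly so except against Holstein 2. The difference was 0.20 (SE 0.12, 95% interval -0.07 to 0.48, adjusted p = 0.490), or 0.10 without Holstein 2.

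The other EIF1 probe set gave 5.82, 5.44 and 5.92 in Holstein and 6.08, 6.02 and 6.01 in Brahman. It had the same sign, at 0.31 (adjusted p = 0.375), and again Holstein 2 was the lowest array. EIF1AX, which encodes the eIF1A protein that keeps the decoding site open for initiator tRNA, read 10.94, 11.37 and 10.90 in Holstein and 10.92, 10.78 and 10.88 in Brahman. Holstein 2 stood above the other 5 arrays, which lay close together, and the difference was -0.21 (SE 0.14, adjusted p = 0.549), or -0.06 without Holstein 2. The remaining members of this group were EIF1B, a close copy of EIF1 (-0.04), EIF1AD, a protein with an eIF1A-like domain (-0.14), and EIF5, the factor that triggers GTP hydrolysis on eIF2 (0.03). Whether the probes separate EIF1 from EIF1B was not tested.

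The eIF2 complex is a trimer that carries the initiator tRNA, and 2 of its subunits were measured. EIF2S1, the alpha subunit and the target of the stress kinases, read 9.35, 9.50 and 9.20 in Holstein and 8.99, 9.06 and 8.81 in Brahman. Every Brahman array lay below every Holstein array. The difference of -0.40 (SE 0.12, 95% interval -0.67 to -0.13) makes the Holstein level 1.32-fold the Brahman level, with an adjusted p of 0.237. Adding the spike-in covariate gave -0.30, with an unadjusted p of 0.215.

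EIF2S3, the gamma subunit that binds GTP and the tRNA, read 10.96, 11.31 and 10.99 in Holstein and 11.06, 11.25 and 11.02 in Brahman. The breeds overlapped, with a difference of 0.02 (95% interval -0.27 to 0.32), and its other probe set gave -0.02. Within an array, EIF2S1 minus EIF2S3 was -1.74 ± 0.11 in Holstein and -2.16 ± 0.08 in Brahman (SD, n = 3 each). The arrays of the breeds did not overlap in this measure, and the two-sided exact permutation p was 0.1, the smallest that 3 against 3 arrays allow (0.133 adjusted over 4 such pairs, all chosen after their values were seen).

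EIF2D and EIF2A encode proteins that can deliver tRNA to the ribosome outside the eIF2 route. EIF2D read 7.39, 7.54 and 7.14 in Holstein and 7.37, 7.14 and 7.20 in Brahman, with overlap and a difference of -0.12 (adjusted p = 0.723). Single arrays moved it from -0.03, without Holstein 2, to -0.23, without Holstein 3. EIF2A differed by -0.06, and its other probe set averaged 3.28, under that quartile of 5.08, so it may not measure a signal over background.

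Of the exchange factor eIF2B 4 subunit genes were measured. EIF2B1, EIF2B2 and EIF2B4 had lower values in Brahman (-0.19, -0.25 and -0.01), and EIF2B3 had probe sets of opposite sign. None of them passed the test, and the catalytic epsilon subunit was not analysed here. EIF2B3, the gamma subunit that pairs with the catalytic one, read 6.97, 7.24 and 6.98 in Holstein and 6.72, 6.71 and 6.58 in Brahman. The breeds did not overlap, and Holstein 2 was the highest array. The difference was -0.39 (SE 0.11, 95% interval -0.64 to -0.14, adjusted p = 0.216).

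The other EIF2B3 probe set went the opposite way. It read 6.30, 6.18 and 6.17 in Holstein and 6.42, 6.36 and 6.59 in Brahman, also without overlap, and differed by 0.24 (SE 0.10, adjusted p = 0.348). Each probe set thus had an unadjusted p under 0.05, 0.00776 and 0.0415, with opposite signs. The gap between them on an array was 0.85 on average in Holstein and 0.21 in Brahman. As the probe sets separated the breeds in opposite directions, this gap could not overlap. Its exact permutation p of 0.1, the smallest possible, was thus fixed and adds no evidence. With the probe sets of the gene averaged, the EIF2B3 difference was -0.07 (adjusted p = 0.710), and no one direction can be given for EIF2B3. With the spike-in covariate the brighter probe set gave -0.19.

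The regulatory subunits of eIF2B showed smaller differences than the brighter EIF2B3 probe set. EIF2B2, the beta subunit, read 9.03, 9.09 and 8.79 in Holstein and 8.81, 8.73 and 8.62 in Brahman. Holstein 3 lay just below Brahman 1, so the breeds overlapped, and the difference was -0.25 (SE 0.11, adjusted p = 0.389). EIF2B1, the alpha subunit, read 6.97, 7.16 and 7.11 in Holstein and 6.90, 6.93 and 6.83 in Brahman. Here every Brahman array was lower, by as little as 0.04 between Holstein 1 and Brahman 2, and the difference was -0.19 (SE 0.09, adjusted p = 0.415), or -0.06 with the spike-in covariate.

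**Figure D2:**
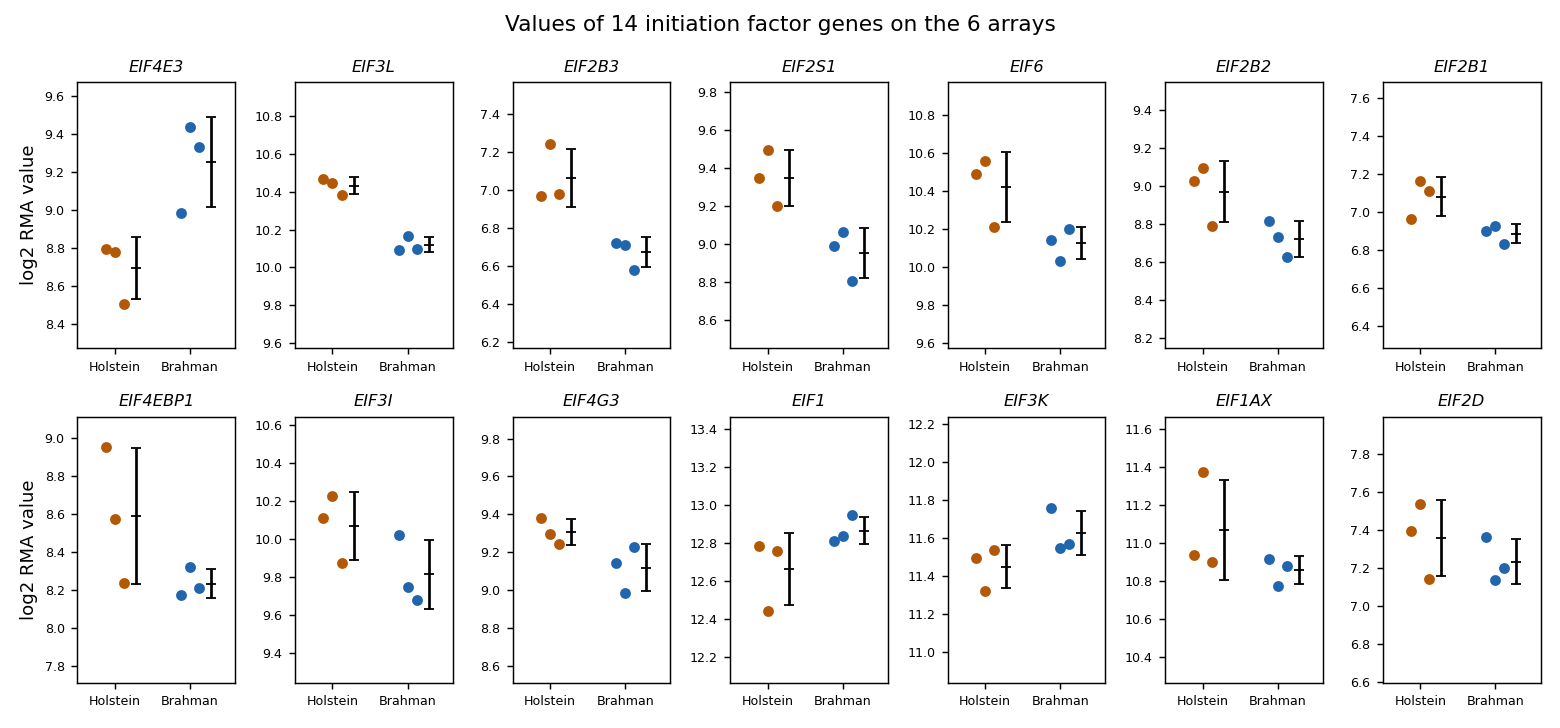
Log2 RMA values of the 14 initiation factor genes with the smallest p-values overall or in their role group, ordered by p, on the 3 Holstein (orange) and 3 Brahman (blue) arrays, with the mean and SD of each breed in black. Each panel spans 1.4 log2 units. EIF4E3, EIF1 and EIF3K are higher on every Brahman array, and EIF3L, EIF2B3, EIF2S1, EIF6, EIF2B1 and EIF4G3 are lower on every one.

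The eIF3 complex is the largest initiation factor and a platform on the small ribosomal subunit. Of its 12 measured subunit genes 9 had lower values in Brahman and 3 higher, with a median of -0.08, and none passed the test. EIF3L read 10.47, 10.44 and 10.38 in Holstein and 10.09, 10.17 and 10.10 in Brahman. The arrays within each breed lay close together, and the breeds were 0.22 apart at the nearest pair. The difference was -0.31 (SE 0.08, 95% interval -0.51 to -0.12, adjusted p = 0.208), a Holstein level 1.24-fold that of Brahman. With the spike-in covariate the difference was -0.32, with an unadjusted p of 0.0749.

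EIF3K, whose protein contacts EIF3L at the edge of the mammalian complex, had the other sign, which turned with the spike-in covariate (-0.04). It read 11.49, 11.32 and 11.53 in Holstein and 11.76, 11.55 and 11.57 in Brahman. The breeds did not overlap, but Holstein 3 and Brahman 2 were nearly equal, and the difference was 0.18 (SE 0.11, adjusted p = 0.513), or 0.11 without Holstein 2 and again without Brahman 1. Within an array, EIF3K minus EIF3L was 1.02 ± 0.14 in Holstein and 1.50 ± 0.14 in Brahman (SD, n = 3 each). EIF3K was higher and EIF3L lower on every Brahman array, so the breeds could not overlap in this measure. Its exact permutation p of 0.1, the smallest possible (0.133 adjusted over the 4 pairs), was thus fixed and adds no evidence.

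EIF3I, a propeller-shaped subunit that binds EIF3B and EIF3G, read 10.11, 10.23 and 9.88 in Holstein and 10.02, 9.75 and 9.68 in Brahman, with overlap. It differed by -0.26 (SE 0.13, adjusted p = 0.450). EIF3B, the subunit at the centre of that module, was lower on every Brahman array but by only 0.01 at the nearest pair, and differed by -0.15, while its other probe set gave 0.11. The scaffold subunit gene EIF3A differed by 0.03. The other 7 subunits ran from -0.16 for EIF3D, which in human cells can contact the cap, to 0.05 for EIF3M. Among these is EIF3CL (-0.15), annotated as a copy of the EIF3C subunit gene, and whether its probes separate it from EIF3C was not tested.

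The cap-binding group showed 5 genes with higher and 5 with lower values, with a median of 0.00. EIF4E3 was the one member of it with an unadjusted p under 0.05. Its protein is an atypical relative of eIF4E that also binds the cap. It read 8.80, 8.78 and 8.51 in Holstein and 8.98, 9.44 and 9.33 in Brahman. All Brahman arrays were higher, with Brahman 1 the nearest to Holstein. The difference was 0.56 (SE 0.15, 95% interval 0.22 to 0.90), a 1.47-fold higher Brahman level, with an adjusted p of 0.203.

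The other EIF4E3 probe set had the same direction. It read 6.02, 5.48 and 6.17 in Holstein and 6.24, 6.74 and 6.29 in Brahman, without overlap. It differed by 0.53 (SE 0.21, adjusted p = 0.340), and Brahman 2 was the highest array in both probe sets. Across 13 alternative settings the EIF4E3 difference ran from 0.46 to 0.69 and its adjusted p from 0.159 to 0.499. Its unadjusted p stayed under 0.05 in 13 of 13, at 0.0486 with the spike-in covariate. In the same settings this held in 12 of 13 for EIF2S1 and for EIF3L, and in 11 of 13 for EIF2B3. The mean T cell and NK marker levels given above were also higher on every Brahman array, as were those of the B cell and neutrophil lists, whose members were mixed in sign, and their part in the EIF4E3 difference was not tested.

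The canonical cap-binding gene EIF4E read 10.15, 10.69 and 10.40 in Holstein and 10.50, 10.57 and 10.40 in Brahman. The breeds overlapped and the difference was 0.08 (95% interval -0.26 to 0.41, adjusted p = 0.862). The array also holds 3 control probe sets along the EIF4E transcript, which differed by 0.03 at the 3′ end, 0.23 in the middle and 0.18 at the 5′ end. Holstein 1 was the lowest array in all 4 probe sets of this gene. The 3′ minus 5′ value, a measure of transcript integrity, was 1.97 ± 0.07 in Holstein and 1.83 ± 0.17 in Brahman (two-sided exact permutation p = 0.2, 0.1 being the smallest possible). The same measure on the actin control probe sets was 1.86 ± 0.13 in Holstein and 1.69 ± 0.04 in Brahman (SD, n = 3 each). It was lower on every Brahman array (exact permutation p = 0.1), but Holstein 1 (1.73) and Brahman 3 (1.72) were nearly equal. On GAPDH it was 0.05 ± 0.18 and -0.10 ± 0.03, with overlap. The part of transcript integrity in the differences of single genes was not tested.

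EIF4E2, a cap-binding relative that represses translation, differed by -0.07, and its other probe set by -0.24 (adjusted p = 0.369) with every Brahman array lower. Within an array, EIF4E3 minus EIF4E was -1.72 ± 0.32 in Holstein and -1.24 ± 0.25 in Brahman, with overlap (exact permutation p = 0.2). EIF4E3 minus EIF4E2 was 0.19 ± 0.09 in Holstein and 0.82 ± 0.23 in Brahman, without overlap. The exact permutation p was 0.1, the smallest possible, and 0.133 adjusted over the 4 pairs. These pairs were chosen after their values were seen, and EIF4E3 alone differed by 0.56.

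The scaffold gene EIF4G3 read 9.38, 9.30 and 9.24 in Holstein and 9.15, 8.98 and 9.23 in Brahman. Every Brahman array was lower, by 0.02 at the nearest pair, with a difference of -0.19 (SE 0.10, adjusted p = 0.453). Its other probe set gave 0.08 with overlap, and the mean of both gave -0.05. Without Brahman 2 the difference was -0.12. The scaffold EIF4G1 differed by -0.06. The RNA helicase genes EIF4A1 (0.08, 95% interval -0.13 to 0.28) and EIF4A2 (-0.01, -0.21 to 0.18) and EIF4A3 (-0.04, -0.23 to 0.15), whose protein belongs to the exon junction complex, were among the most narrowly bounded. The helicase cofactors EIF4B and EIF4H differed by 0.02 and 0.03.

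EIF4EBP1, the one eIF4E-binding protein gene with its own probe set, varied most among the Holstein animals. It read 8.95, 8.57 and 8.24 in Holstein and 8.17, 8.32 and 8.21 in Brahman. Holstein 3 lay within the Brahman range, and Holstein 1 stood far above all other arrays. The difference was -0.35 (SE 0.17, 95% interval -0.76 to 0.06, adjusted p = 0.428). It was -0.17 without Holstein 1, -0.53 without Holstein 3 and -0.58 with the spike-in covariate.

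EIF6 encodes a factor that binds the large ribosomal subunit and keeps it from joining too early. It read 10.49, 10.56 and 10.21 in Holstein and 10.14, 10.03 and 10.20 in Brahman. The breeds did not overlap, but Holstein 3 and Brahman 3 differed by only 0.01. The difference was -0.29 (SE 0.12, 95% interval -0.57 to -0.02, adjusted p = 0.341), with an unadjusted p of 0.0383 that became 0.00742 without Holstein 3 and 0.113 without Holstein 2. The unadjusted p stayed under 0.05 in 5 of 13 alternative settings, and it was 0.0674 with the replicate block and 0.0520 with array weights. With the spike-in covariate the difference was -0.17, with an unadjusted p of 0.471.

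Genes with more than 1 probe set gave a mixed record. Leaving array controls aside, 12 of the 37 genes had other probe sets, 13 in all, and 6 of these 13 had the same sign as the brighter probe set. EIF1, EIF4A3, EIF4E2, EIF4E3 and EIF4H kept their sign in every probe set. EIF2A, EIF2B3, EIF2S3, EIF3A, EIF3B, EIF4G3 and EIF5 did not. For EIF2A and EIF3A the dimmer probe set averaged 3.28 and 3.32, both under the quartile of 5.08.

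**Figure D3:**
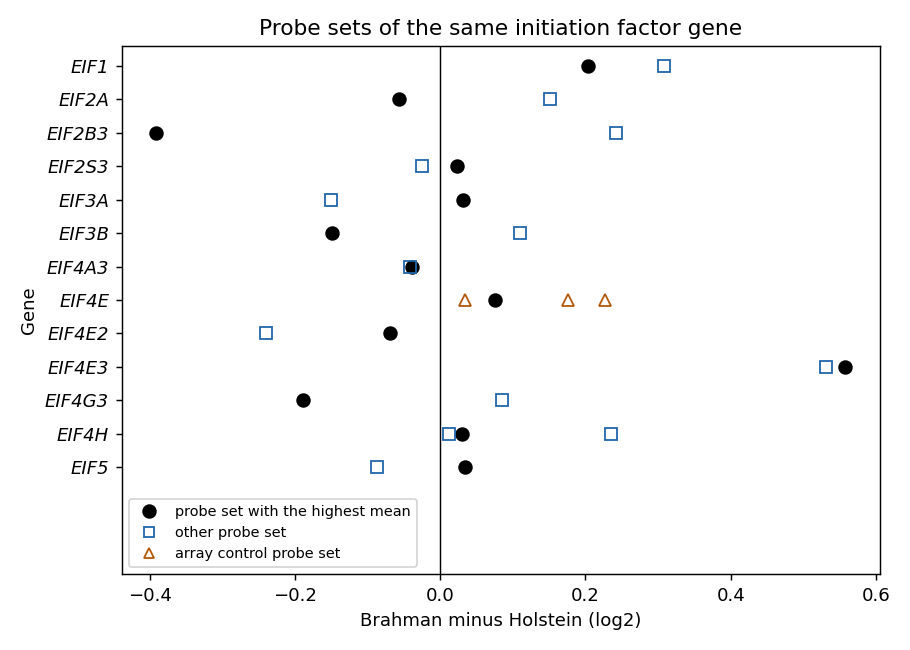
Brahman minus Holstein difference (log2) of every probe set of the 13 initiation factor genes that have more than 1, with the brightest probe set (filled circle), other probe sets (squares) and array control probe sets (triangles). EIF4E3 is higher in Brahman in both, and EIF2B3 has opposite signs.

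The initiation factor genes varied more between Holstein than between Brahman animals, as did genes at large. The SD was higher in Holstein for 24 of 37 genes (64.9%) and for 65.4% of all genes, and its median over the 37 was 0.14 in Holstein and 0.08 in Brahman. Holstein 2 was the highest of the 6 arrays for 21 of the 37 genes (56.8%), against 24.9% of all genes. Holstein 3 was the highest for 0 genes, against 8.47% of all genes. Brahman 3 was the lowest for 12 (32.4%), against 15.9% of all genes. The mean over the 37 genes was 10.03, 10.10 and 9.95 on Holstein 1, 2 and 3 and 9.97, 9.97 and 9.92 on Brahman 1, 2 and 3, so the breeds overlapped. Without Holstein 2 the median difference of the 37 genes was -0.03, as it was after cyclic loess between arrays, and it was -0.01 with the spike-in covariate. Holstein 2 also had the highest spike-in level, 10.38, and the largest actin 3′ minus 5′ value, 1.98 against 1.64 to 1.88 on the other arrays, and the part of these in its high values was not tested.

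**Figure D4:**
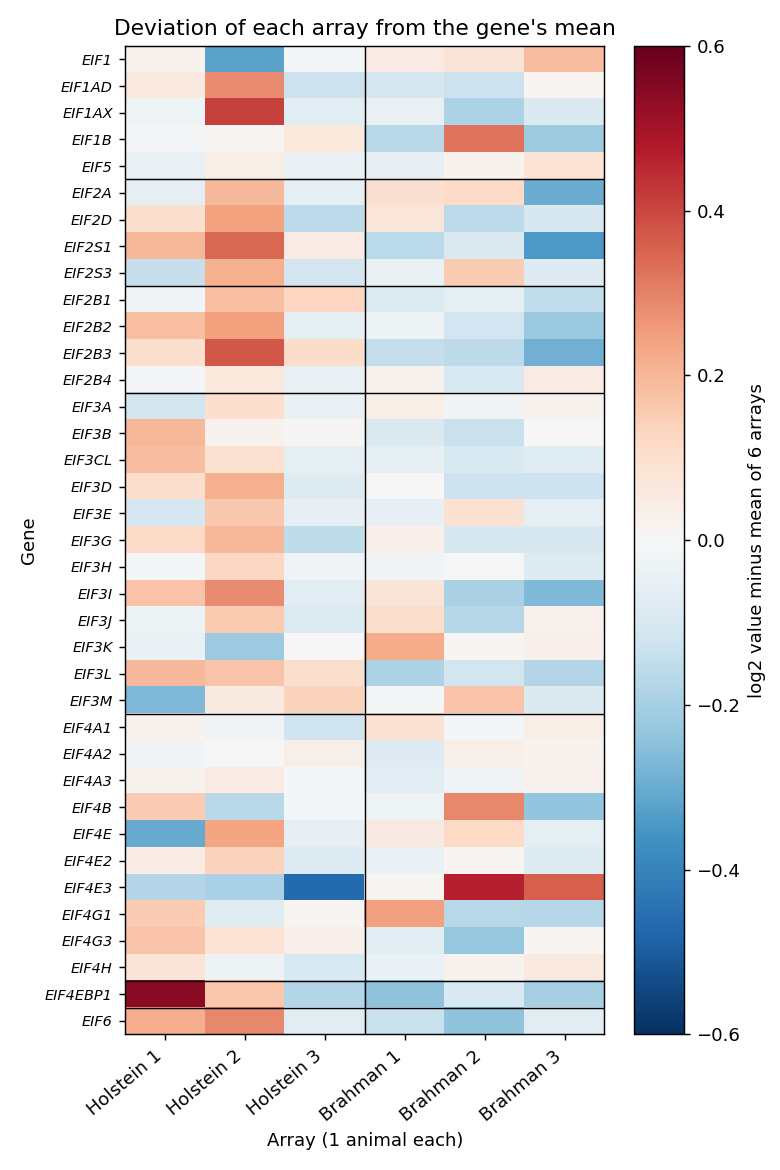
Log2 value of each array minus the mean of the 6 arrays, for the 37 initiation factor genes (rows, grouped by role) on each array (columns). The Holstein 2 column is the reddest, with the highest value in 21 genes, and EIF1 and EIF3K are among the exceptions.

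Genes around initiation were read in the same fit. The EIF2AK kinases and other regulators and helpers of initiation had a median of 0.00 over 28 measured genes, with 14 higher and 14 lower in Brahman. The 1 gene called among them was CYFIP1, a protein that binds eIF4E in neurons and also belongs to the WAVE actin complex. It read 9.66, 10.00 and 9.74 in Holstein and 8.75, 8.72 and 8.66 in Brahman, and fell by 1.09 on the log2 scale (SE 0.11, adjusted p = 0.0258). The call held in 2 of 6 fits that each left out 1 array and was lost without Holstein 2, Brahman 1, Brahman 2 or Brahman 3 (adjusted p = 0.0724, 0.0902, 0.127 and 0.0766). It was also lost with the spike-in covariate (adjusted p = 0.373). With the probe sets of the gene averaged the difference was -0.56, with an adjusted p of 0.0864. A dimmer CYFIP1 probe set, averaging 4.94, gave -0.03.

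EIF2AK3, the kinase PERK that phosphorylates eIF2 alpha under stress of the endoplasmic reticulum, read 8.44, 8.49 and 8.53 in Holstein and 8.83, 8.81 and 8.93 in Brahman. The breeds did not overlap, and it differed by 0.37 (SE 0.09) with an adjusted p of 0.170. The list of elongation and termination factors also held enzymes that modify translation factors, such as DHPS and EEF2K, and MTIF2, a mitochondrial initiation factor. Of its 25 measured genes 18 were on the lower side in Brahman and the median was -0.06. Of these genes 0 were called and 3 (all lower, 12%) were past an unadjusted p of 0.05, near the 9.62% of all genes. The smallest p-values were those of TSFM, a mitochondrial elongation factor (-0.35, adjusted p = 0.267), and DHPS, which starts the hypusine modification of eIF5A (-0.37, adjusted p = 0.268).

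Genes induced through eIF2 alpha phosphorylation, the integrated stress response, went in both directions. Of 18 measured genes 11 had lower and 7 higher values in Brahman and the median was -0.14. Of these 0 passed the test, while at an unadjusted p of 0.05 the counts were 4 lower (22.2%) and 2 higher (11.1%), against 9.62% and 6.23% of all genes. CHAC1, a glutathione-degrading enzyme, read 6.28, 6.33 and 6.41 in Holstein and 6.99, 6.84 and 6.72 in Brahman, higher on every Brahman array by 0.51 on average (adjusted p = 0.126). GARS1, the glycyl-tRNA synthetase, differed by -0.41 (adjusted p = 0.261), also without overlap.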

How the data were processed

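The values are log2 expression levels deposited by the authors. They were made with RMA, per the submitters' processing notes, in a version not given in those notes. This method subtracts background, forces all arrays to 1 distribution and condenses the probes of a set to 1 level, so a shift shared by all transcripts of an array is lost. Of 24128 probe sets, 112 array controls were set aside and 24016 tested. Gene symbols came from the platform annotation, and the symbols of all 37 initiation factor genes equal the RefSeq symbols of their Entrez identifiers. No sequences or coordinates are printed.

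Brahman was compared with Holstein with limma 3.58.1 in R 4.3.3 (lmFit, eBayes), with breed as the only term, two-sided, and Benjamini-Hochberg adjustment over all tested probe sets. The pipeline was tested on simulated data. The members, role groups and gene lists were chosen with earlier results of these data known. Values on every array are given for the 12 genes with the smallest p-values and the 2 with the smallest in each of 7 role groups, 14 in all. They are also given for EIF2S3 and EIF4E, which fall outside this rule. Of each list of other genes, the 2 measured members with the smallest p-values are named. The replicates are different animals, and precision is limited by having 3 arrays per breed. No detection calls were used here. The replicate numbers did not pair the animals: the deviations of same-numbered animals from their breed means correlated at 0.11, -0.04 and -0.07. Spike-in level is the mean of 18 hybridisation control probe sets. Alternatives were cyclic loess, array weights, a trended robust prior, leaving out the dimmest 25% of probe sets, the replicate block, the spike-in covariate, averaged probe sets and leaving out each array.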

Additional observations from a re-analysis of the deposited data

How the results depend on the processing

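The count of 0 called initiation factor genes was 0 in all 13 alternative fits. Over all probe sets limma called 33, against 10 with the replicate block, 0 with the spike-in covariate and 5 to 55 with each array left out in turn. With the spike-in covariate the counts at an unadjusted p under 0.05 were 0 lower and 2 higher initiation factor genes, and the lower count ran from 3 to 7 and the higher count from 1 to 1 with each array left out. Of 182 values for the 14 named genes, 178 kept their direction and none was called. The other 4, all with the spike-in covariate, turned: EIF1 (-0.0597), EIF1AX (0.180), EIF2D (0.0038) and EIF3K (-0.0423). That covariate separates the breeds, so little of the breed difference can be estimated apart from it. Part of the 178 could not turn. Leaving out dim probe sets, the trended robust prior and the replicate block leave a difference unchanged, as does averaging for genes with 1 probe set. The replicate block ended the calls of CYFIP1 (adjusted p = 0.106) and GZMB (0.0536), and the spike-in covariate that of GZMB (0.358). The block changed no call of an initiation factor gene. Without detection calls, whether a dim probe set lies above background is unknown.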
